A study of Sus scrofa with 14 samples.

Results

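The luminal epithelial cells shed into sow milk were chosen by their own marker transcripts, in 1 milk library labelled L0 and 1 labelled L20. A barcode was taken as a member when it held 300 genes or more, had at most 25% of its UMIs (unique molecular identifiers, each counting 1 captured RNA molecule) from mitochondrial genes, had a UMI of at least 3 of the 7 genes CLDN4, CLDN3, EPCAM, KRT18, KRT8, ELF5 and FDCSP, and had 0 UMIs of TOP2A, TPX2, KRT14 and CD3D. Milk protein transcripts were not used in the choice. In the L0 library 1371 of 17571 kept barcodes met the rule, which is 7.80% (exact 95% binomial interval 7.41 to 8.21). In the L20 library 287 of 14514 did, which is 1.98% (1.76 to 2.22), giving 1658 members among 32085 kept barcodes in all. Every interval given here covers counting error alone.

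The study followed the mammary gland of multiparous sows in their second breeding cycle through pregnancy, lactation and involution, and profiled milk cells next to gland nuclei. Milk L0 stands for 15 mL of fresh colostrum from lactation day 0 and milk L20 for mature milk from day 20, each as 1 whole-cell GEXSCOPE library (n = 1), without any drug or genetic change. The milk origin comes from the methods of the study, since the tissue field of the sample labels names the mammary gland. Gland nuclei of 2 sows at L0 and 2 at L20, chosen by the same marker rule, are given beside the milk cells. With 1 library per stage the difference between stages, sows and library preparations cannot be told apart, so no p-value was computed.

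The deposited milk matrices held 22257 barcodes with 84971814 UMIs at L0 and 18733 barcodes with 46923887 UMIs at L20. They shared 284 barcode sequences, none of which was a member in both, and 26 L0 members and 2 L20 members had a barcode that also occurred in the other file. The L0 library held more kept cells, a larger epithelial share and a smaller T cell share than the L20 library, with CD3D UMIs in 1.37% of L0 and 4.83% of L20 barcodes. The study's own pictures of its milk cells draw these 3 quantities in the opposite order for the 2 stages. The names L0 and L20 below therefore mean the library labelled so, and an exchange of the 2 labels would invert every ratio.

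Luminal epithelial cells line the ducts and alveoli of the mammary gland, and in lactation the alveolar ones make and secrete milk. Prolactin acts on them through its receptor and the transcription factor STAT5, with ELF5 as a partner, to switch on genes for caseins and whey proteins. The proteins are folded in the endoplasmic reticulum and leave by exocytosis, fat leaves as membrane-wrapped globules, and some living epithelial cells detach into the milk.

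The genes with the largest shares of the members' UMIs included the caseins CSN1S1, CSN2 and CSN3, the micelle proteins of milk, and LALBA, the regulatory subunit of lactose synthase. The 250 bases upstream of their annotated starts (RefSeq, Sscrofa11.1) are shown because these transcripts varied together across cells and STAT5 is a known activator of them. Capitals mark the palindromic STAT5-type motif TTCNNNGAA, searched on both strands, and each sequence runs 5′ to 3′ on the strand of its gene. The windows are chr8:66887981-66888230 (plus strand) for CSN1S1, chr8:66922637-66922886 (minus) for CSN2, chr8:67098881-67099130 (plus) for CSN3 and chr5:79216792-79217041 (minus) for LALBA.
CSN1S1: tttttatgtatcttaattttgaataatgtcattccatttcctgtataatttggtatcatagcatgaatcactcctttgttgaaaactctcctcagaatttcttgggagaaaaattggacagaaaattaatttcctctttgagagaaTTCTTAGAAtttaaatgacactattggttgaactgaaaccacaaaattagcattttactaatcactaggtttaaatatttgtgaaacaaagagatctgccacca
CSN2: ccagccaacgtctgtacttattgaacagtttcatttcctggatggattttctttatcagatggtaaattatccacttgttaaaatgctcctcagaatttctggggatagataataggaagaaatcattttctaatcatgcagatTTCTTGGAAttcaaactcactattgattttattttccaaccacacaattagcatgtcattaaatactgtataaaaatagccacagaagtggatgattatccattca
CSN3: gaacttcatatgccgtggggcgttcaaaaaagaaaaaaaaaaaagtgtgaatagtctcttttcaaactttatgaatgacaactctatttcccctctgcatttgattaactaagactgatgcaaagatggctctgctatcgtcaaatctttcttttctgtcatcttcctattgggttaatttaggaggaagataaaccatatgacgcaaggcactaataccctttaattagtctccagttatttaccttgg
LALBA: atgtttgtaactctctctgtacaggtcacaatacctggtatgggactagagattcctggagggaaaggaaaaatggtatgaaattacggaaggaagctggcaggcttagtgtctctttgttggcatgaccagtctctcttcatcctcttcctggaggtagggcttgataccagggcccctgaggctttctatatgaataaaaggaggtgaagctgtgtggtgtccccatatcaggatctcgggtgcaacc
The CSN1S1 window held 1 match, whose first base lay at position -104 from the start, and the CSN2 window held 1 at -106. No match occurred in the CSN3 and LALBA windows, nor in those of FABP3 and the fat globule gene BTN1A1, which were searched as well and are not shown. Of all 20664 protein-coding genes with a full window, 1318 held the motif, which is 6.38%, and a match describes letters only.

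Members were deeper than the leukocytes around them, in part because the rule itself favours depth. A deeper barcode more easily holds a UMI of 3 markers, and the myeloid cells below had to hold none. At L0 the median depth rose from 1157 UMIs in barcodes with 0 markers to 27233 with 7. The median member had 16635 UMIs and 2486 genes at L0 and 4496 UMIs and 1015 genes at L20, against 1212 and 1287 UMIs in myeloid cells, defined by UMIs in at least 3 of 6 myeloid genes and none of the rule markers. The members were 7.80% and 1.98% of the barcodes but carried 30.7% and 8.57% of the kept UMIs. The depth within the L20 members was uneven, with quartiles of 2287 and 16278 UMIs.

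The marker genes that chose the members are given as a description. ELF5, the alveolar transcription factor, had a UMI in 96.0% of L0 and 87.8% of L20 members. CLDN3, a tight junction claudin, was found in 93.9% and 65.2%, EPCAM, an epithelial adhesion molecule, in 91.0% and 71.4%, and CLDN4 in 77.5% and 50.2%. The simple keratins KRT8 and KRT18 reached 77.5% and 59.1% at L0 and 69.0% and 58.5% at L20. FDCSP, a small secreted peptide, was found in 12.3% and 25.1%.

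The limit of 3 markers lay in a sparse range at L0 and in a filled one at L20. Just outside it, with 2 markers, stood 274 L0 and 190 L20 barcodes with median depths of 1962.5 and 1994 UMIs and median milk protein shares of 1.67% and 12.1%. Just inside, with 3 markers, stood 162 and 119 barcodes with 6598 and 2474 UMIs and shares of 27.7% and 22.0%. The exclusion by KRT14, a keratin of basal cells, was the widest of the 4. Of the barcodes with at least 3 markers, 1209 at L0 and 403 at L20 were left out for KRT14 alone, and 499 and 136 of these carried a single KRT14 UMI. The cells left out for KRT14 had median milk protein shares of 34.6% and 16.7%.

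Epithelial genes outside the rule were high in the members. Of 11 such luminal genes fixed for the check, 10 were measured (KRT19 was not found by name), and all 10 were above 2-fold over myeloid cells in both libraries, by 5.80 to 21.2 times at L0 and 12.3 to 227 times at L20. Their summed level was 3508 CPM (UMIs of a gene per 1e6 UMIs, summed over the cells and not divided by transcript length, since each molecule counts once) at L0 and 2733 CPM at L20. They included the epithelial cadherin CDH1 at 96.7 and 41.8 CPM, the epithelial transcription factor EHF at 382 and 228 CPM, and the fat globule genes BTN1A1 at 1203 and 1144 CPM and XDH at 1347 and 1083 CPM. Over all 3118 genes with a mean of at least 20 CPM in the members, 484 (15.5%) were above 2-fold over myeloid cells in both libraries.

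**Figure D1:**
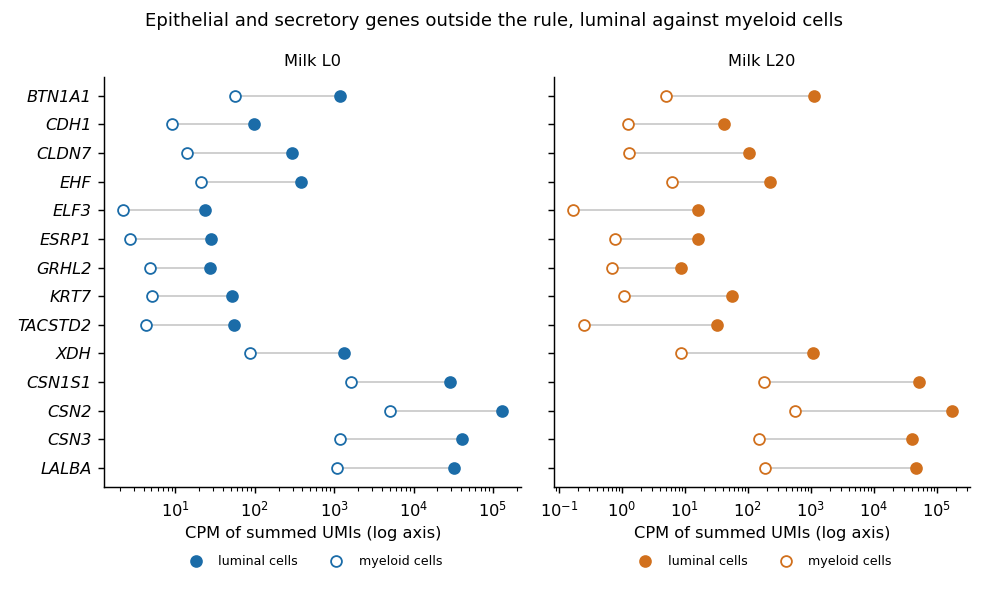
Levels in CPM (log axis) of 14 luminal and secretory genes that the rule did not use, in luminal members (filled) and myeloid cells (open) of milk L0 and milk L20, 1 library each. Every filled point lies to the right of the open point of its gene, with ratios of 5.80 to 34.8 at L0 and 12.3 to 302 at L20.

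Basal markers were scarce. Of 7 basal genes (KRT14 left aside), 6 were measured and KRT17 was not found by name. Their levels lay between 0.0403 CPM (ACTA2, the smooth muscle actin of myoepithelial cells) and 9.02 CPM (KRT5) at L0, with a sum of 12.6 CPM. At L20 they lay between 0 (ACTA2) and 2.17 CPM (MYLK), with a sum of 5.70 CPM.

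Many members held leukocyte transcripts. At least 1 UMI of the 4 leukocyte genes PTPRC, TYROBP, FCER1G and CSF3R was found in 82.6% of L0 and 58.9% of L20 members, with medians of 1.18 and 0.799 per 10000 UMIs, against 105 and 77.3 in myeloid cells. UMIs of at least 3 of the 6 myeloid genes, the number that defined myeloid cells, were found in 531 L0 members (38.7%) and 72 L20 members (25.1%). The part of leukocyte RNA in the members' values was not tested. The number of genes past 2-fold between the libraries, defined below, was 58 higher and 449 lower at L20. Without members holding any UMI of the 4 genes it was 186 and 170. That setting takes out deep cells more often. A UMI of the 4 genes was found in 67.3% of L0 members with 3 rule markers (median 6598 UMIs) and in 91.8% with 7 (27233). Without members above 10 such UMIs per 10000 the number was 56 and 433. Of the genes reported below that turned direction in the first setting, only CPSF6 turned in the second. A doublet caller, Scrublet, marked 1 L0 and 0 L20 barcodes, so doublets were in effect not removed. With the milk protein UMIs of myeloid cells read as free RNA of the library's mean composition, free RNA came to 86.9 UMIs per cell at L0 and 61.7 at L20, or 0.479% and 0.481% of the members' UMIs.

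Milk protein transcripts made up a large part of the members' RNA in both libraries. The genes CSN1S1, CSN2, CSN3, LALBA and PAEP together took 36.3% of the summed UMIs at L0 and 44.3% at L20. The set of 6 also named CSN1S2, which was not found by name. Abundant identifiers without a symbol were not counted in the share. Among them, ENSSSCG00000049579 was at 43227 and 61306 CPM and ENSSSCG00000016731 at 25207 and 38799 CPM. They stood 26.0 and 33.0 times over myeloid cells at L0 and 288 and 277 times at L20. What they encode was not determined, so the share can be too low. PAEP encodes beta-lactoglobulin, the main whey protein. FABP3, which was not in the set, encodes a fatty acid binding protein abundant in milk. Per cell the share had a median of 37.1% at L0, with quartiles of 30.4% and 41.9% and a range of 0.658% to 54.4%. At L20 the median was 31.1%, with quartiles of 17.2% and 47.3% and a range of 0.0711% to 60.5%. The quartile range of L0 lay within that of L20, so the L20 cells spread more widely in both directions. The median was 1.28% and 0.139% in myeloid cells and 1.15% and 0.112% in T cells. It was 32.0% in the 244 dividing epithelial cells of L0 and 42.9% in the 11 of L20.

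**Figure D2:**
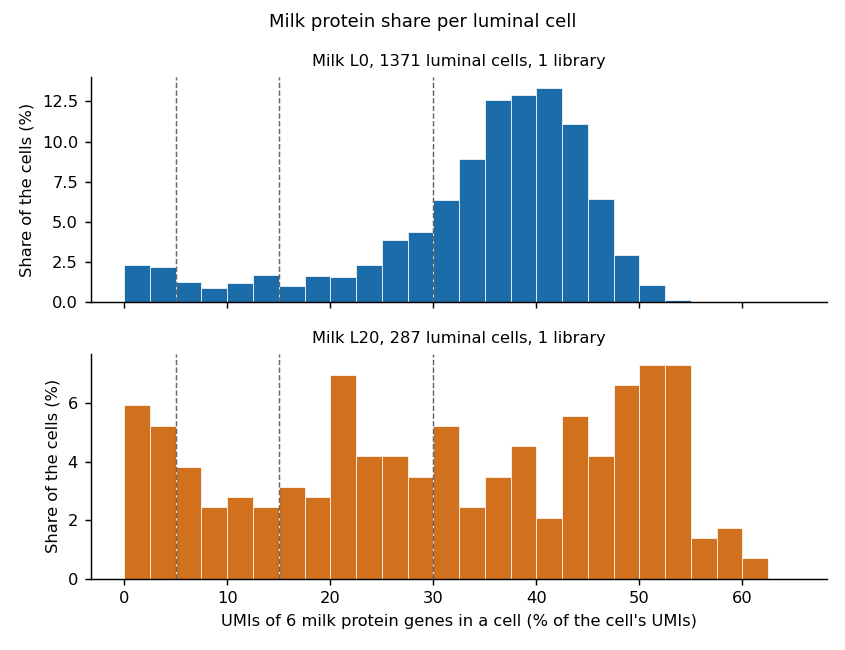
Share of the members (%) in bins of 2.5 percentage points by the part of their UMIs from a set of 6 milk protein genes (%), for 1371 cells of milk L0 and 287 of milk L20, 1 library each. CSN1S2 of the set was not found by name. Dashed lines mark 5%, 15% and 30%. L0 forms 1 peak around its median of 37.1% with a small group of 62 cells under 5%, while L20 is spread from under 5% to 60.5%.

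In summed UMIs scaled to their total, the milk protein genes other than SPP1 lay within 2-fold between the libraries. PAEP stood at 130803 CPM at L0 and 131287 CPM at L20, a ratio of L20 over L0 of 1.004. CSN3, the micelle-stabilising kappa-casein, stood at 40720 and 40986 CPM (1.01). CSN2, beta-casein, was at 130196 and 172168 CPM (1.32, interval 1.32 to 1.33). LALBA was at 31920 and 46702 CPM (1.46, 1.46 to 1.47), and CSN1S1 at 28993 and 51913 CPM (1.79, 1.78 to 1.80). Of the 11 proteins on the fixed milk protein list, 7 entered the comparison. A gene was called past 2-fold when the whole exact 95% counting interval of its ratio lay beyond 2 or below 0.5. None was past 2-fold higher and 1, SPP1 (osteopontin), was past 2-fold lower, at 450 and 196 CPM (0.436, 0.404 to 0.470). Over all genes entered, 1.86% were past 2-fold higher and 14.4% lower. With TMM factors, another scaling of the totals, 3 of the 7 were past 2-fold higher, beside 140 of all 3053 genes. Taking in cells with 2 markers turned the direction of SPP1 (log2 ratio 1.03).

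Medians over single cells were lower at L20 for all 3 caseins, LALBA, PAEP and FABP3, while the summed level was lower for FABP3 alone of these. The order of the medians of the whole milk protein share turned in cells of at least 5000 UMIs, with 38.0% at L0 and 45.7% at L20. CSN1S1 took a median of 2.88% of a cell's UMIs at L0 and 2.78% at L20, and CSN3 4.03% and 2.70%. CSN2 took a median of 12.7% of a cell's UMIs at L0 (quartiles 9.42% and 15.5%) and 7.35% at L20 (1.75% and 17.1%). LALBA took 2.89% (1.52% and 4.14%) at L0 and 0.775% (0.0433% and 4.65%) at L20. PAEP was steadier, with 13.4% (11.2% and 15.3%) and 12.9% (9.17% and 16.3%). With each cell thinned to 1000 UMIs, LALBA was found in 97.2% of L0 cells (95% interval 96.2 to 98.0) and 74.6% of L20 cells (69.1 to 79.6), CSN2 in 99.9% and 92.5%, and PAEP in 100% and 98.9%. Unthinned, LALBA was found in 99.6% and 81.2%. Thinning kept 1363 and 280 members, and 8 and 7 shallower ones were left out.

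The caseins varied together from cell to cell, with higher correlations at L20. As a description over cells of 1 library, which share its depth and free RNA and whose shares add up to a common total, the rank correlation of UMI shares was 0.62 at L0 and 0.88 at L20 for CSN1S1 with CSN2, 0.57 and 0.93 for CSN1S1 with CSN3, and 0.42 and 0.86 for CSN2 with LALBA. CSN2 with PAEP gave 0.48 and 0.38. SCD, the desaturase that makes monounsaturated fatty acids, followed CSN2 with 0.31 and 0.76. PIGR, the receptor that carries immunoglobulin A into milk, followed BTN1A1, a coat protein of the fat globule, with 0.57 and 0.67.

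The members were further described in 4 ranges of milk protein share. At L0, 62 cells (4.52%) lay under 5%, 68 from 5 to 15%, 202 from 15 to 30% and 1039 (75.8%) at 30% or above. At L20 the same ranges held 32 (11.15%), 33, 71 and 151 (52.6%). Median depth was 6085, 5082, 12417 and 18471 UMIs in these ranges at L0, and grew from 1938 to 13639 at L20. Within 1 percentage point of the limits of 5%, 15% and 30% lay 20, 14 and 54 L0 cells and 10, 9 and 8 L20 cells. The ranges serve as a description, and whether they hold distinct types of cells was not tested.

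The cells under 5% differed between the libraries. At L0 their summed UMIs held JCHAIN, the joining chain of secreted immunoglobulins, at 20170 CPM and the lysosomal protease CTSD at 5475 CPM. The macrophage glycoprotein GPNMB was at 4950 CPM, the MHC class II chain CD74 at 4867 CPM and the calgranulin S100A12 at 5275 CPM. A UMI of JCHAIN was found in 18 of the 62 cells, of GPNMB in 20, CTSD in 31, S100A12 in 44 and CD74 in 48. KRT8 was at 118 CPM and KRT7 at 40.8 CPM there. Leukocyte UMIs above 10 per 10000 were found in 25 of these 62 cells, against 13 of the 1039 cells at 30% or above, and the part of other cells in these levels was not tested. The JCHAIN UMIs of L0 members came from few cells, with 96.4% in the top 69 cells and 29.5% in 1 cell.

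At L20 the cells under 5% together held more KRT7, a simple keratin that the rule did not use, at 897 CPM against 16.6 CPM in the cells at 30% or above. These levels are summed over the cells of a range. The rule markers are not compared across ranges, since a UMI of 3 of them weighs more in a shallow cell. ADIRF, first described in fat cells, was at 16106 against 197 CPM, MGP, an inhibitor of calcification, at 8438 against 544 CPM, and the growth factor receptor ERBB3 at 4542 against 883 CPM. KRT14-bearing cells of L20 as a whole held more ADIRF and MGP, at 3506 and 2203 CPM, than all L20 members, at 1305 and 1558 CPM. In a shallow cell, 0 KRT14 UMIs separates the 2 classes less well. Leukocyte UMIs above 10 per 10000 were found in 5 of the 32 L20 members under 5%. HSPA5, the main chaperone of the endoplasmic reticulum, had 0 UMIs among 71342, which allows up to 42.1 CPM, and JCHAIN with 1 UMI and GPNMB with 2 also lay under that floor of 3 UMIs.

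Most immediate early and heat shock genes were highest between 5 and 30% in both libraries. This held for 15 of the 18 that entered, beside 66 of the 186 list genes outside the rule that were split by range (35.5%), these 15 among them. It was not particular to them. It also held for 4 of 5 interferon-stimulated genes, 6 of 9 luminal transcription factors, 7 of 12 junction genes and 9 of 18 chaperone genes. It held for 0 of 7 milk protein and 0 of 13 fatty acid genes. JUN, an immediate early transcription factor, was at 4303 CPM at L0 and 4435 CPM at L20 from 5 to 15%, against 1061 and 638 CPM at 30% or above, and its L20 UMIs in the lower range came from 10 of the 33 cells. FOS, its partner, was at 5383 and 2814 CPM against 1339 and 768 CPM. As CPM are parts of a total, the other genes together fall when milk proteins take a larger share. None of the 8 defence genes that entered was highest there in both libraries. PGLYRP1, a peptidoglycan-binding antibacterial protein, went with the milk proteins at L0, from 872 CPM under 5% to 17222 CPM at 30% or above. At L20 it was highest from 15 to 30%, at 23129 CPM, against 5388 CPM at 30% or above. LTF (lactoferrin) had the same shape at L20, with 3701 against 1418 CPM, and was at 2100 and 2102 CPM in these ranges at L0.

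**Figure D3:**
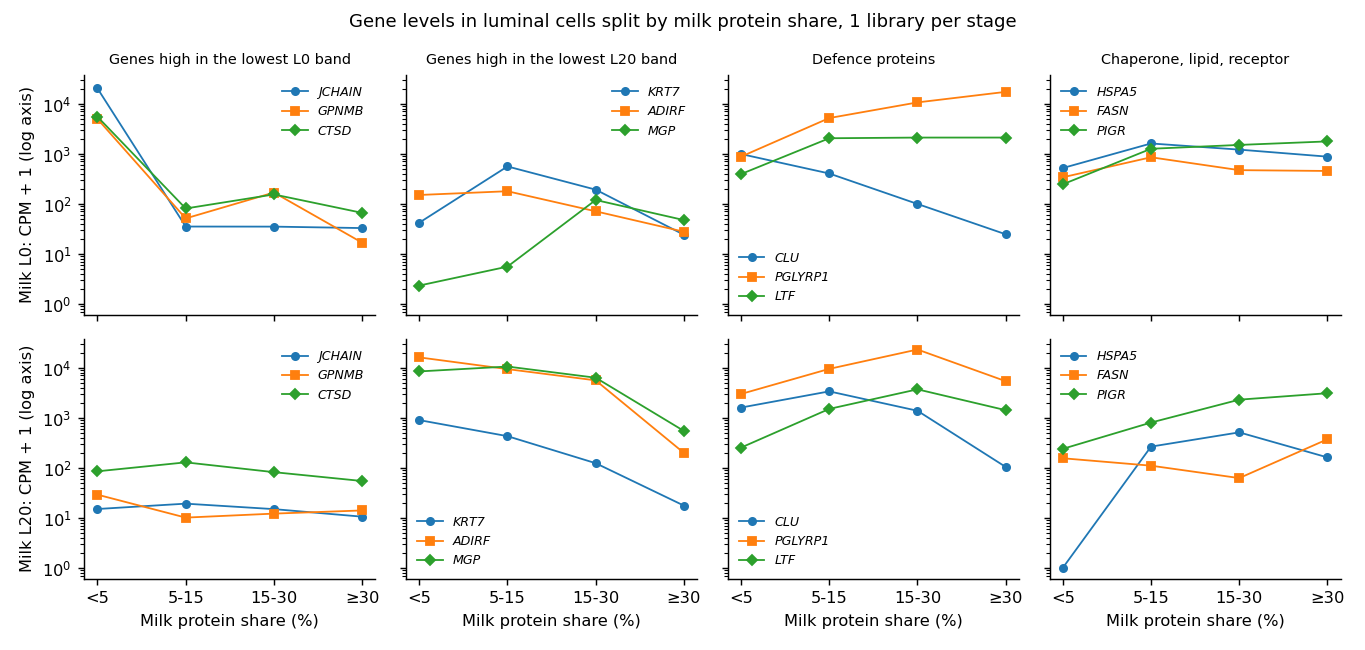
Levels (CPM + 1, log axis) of 12 genes in luminal members split by milk protein share into 4 ranges, for milk L0 (upper row) and milk L20 (lower row), 1 library each. JCHAIN, GPNMB and CTSD stand out under 5% at L0, ADIRF, MGP and KRT7 stand out at low shares at L20, and PGLYRP1 is highest at 30% or above at L0 but from 15 to 30% at L20.

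Across all genes the members of the 2 libraries were broadly alike in rank, with a Spearman correlation of CPM of 0.773 across 3118 genes and 71.3% of genes within 2-fold. Past 2-fold, 58 genes were higher at L20 and 449 lower, or 16.3% in either direction. The median log2 ratio of all genes was -0.65, so a list is read against that value and not against 0. Scaling by TMM moved the median to 0.04 and turned the split to 140 higher and 92 lower of 3053 genes. Without members that held a leukocyte UMI the split was 186 and 170 of 3934, with a median of 0.06. With cells thinned it was 96 and 124 of 3783, with a median of -0.05. List counts in these settings are read against these values.

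The genes of protein folding in the endoplasmic reticulum were lower in the members of L20. Of 21 chaperone and unfolded protein response genes listed, 18 entered, 0 were past 2-fold higher and 17 lower, with a median log2 ratio of -1.80 beside -0.65 over all genes. HSPA5 stood at 912 CPM at L0 and 194 CPM at L20 (ratio 0.213, interval 0.198 to 0.230). HSP90B1, the HSP90 of that compartment, stood at 877 and 216 CPM (0.246, 0.229 to 0.264). The disulfide isomerase PDIA4 stood at 349 and 71.4 CPM (0.205, 0.180 to 0.231), and XBP1, the transcription factor of the secretory programme, at 561 and 160 CPM (0.284, 0.262 to 0.309). CRELD2, a secreted stress-induced factor, had the lowest ratio, with 159 and 20.9 CPM (0.132, 0.104 to 0.165). ATF4, a translation-controlled stress factor, was the 1 gene not past 2-fold, at 249 and 150 CPM (0.601, 0.550 to 0.656). With TMM 9 of the 18 were past 2-fold lower (median -1.13), with cells thinned 12 (median -1.76), and in the cells at 30% milk protein or above 17 (median -1.91). Over all genes 92 of 3053, 124 of 3783 and 488 of 2740 were lower in these settings.

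In each other cell class the chaperone list went the way of most genes. The 18 genes summed to 7173 CPM at L0 and 2137 CPM at L20 in luminal members. In KRT14-bearing cells they summed to 6675 and 2331 CPM, and in dividing epithelial cells to 7378 and 2008 CPM, with all 18 lower at L20 in each, where 75.8% and 89.2% of all 3118 genes were lower, beside 88.1% in luminal members. In myeloid cells they summed to 1957 and 4854 CPM, with 16 of the 18 higher at L20 beside 67.5% of all genes, and in T cells to 3920 and 4210 CPM, with 11 higher beside 53.7%.

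**Figure D4:**
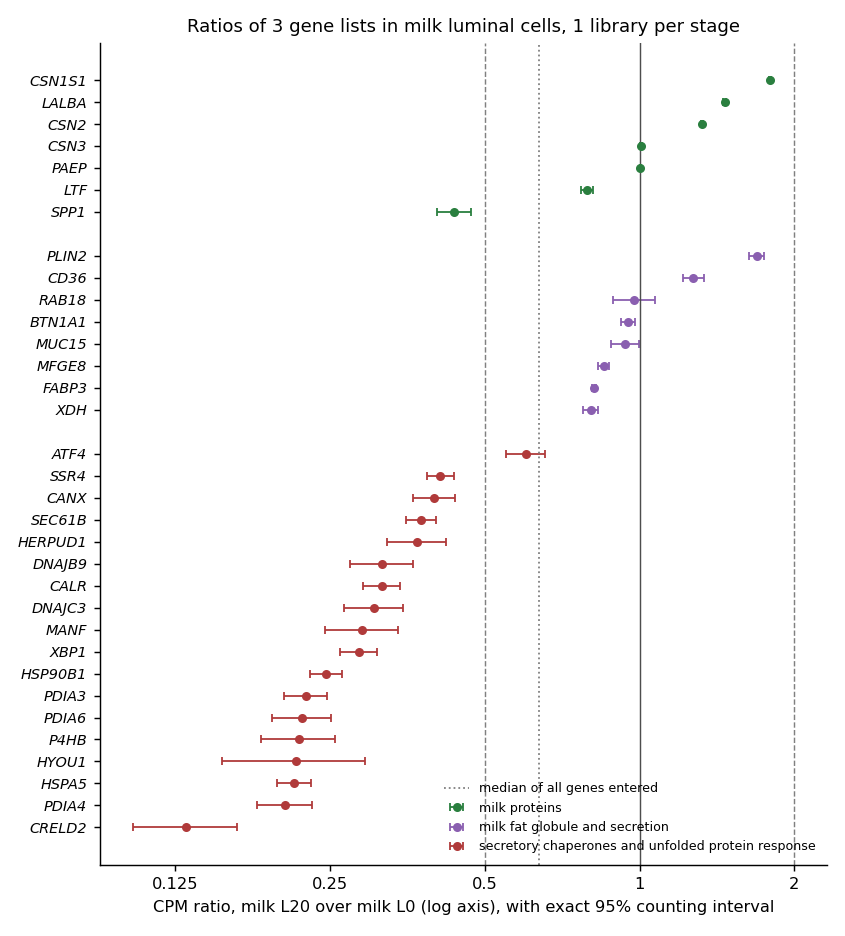
Ratio of CPM in milk L20 over milk L0 luminal members (log axis) with exact 95% counting intervals for the genes entered of 3 lists, 1 library per stage, where dashed lines mark 0.5 and 2 and the dotted line the median of all genes. The 7 milk protein and 8 fat globule genes lie between 0.436 and 1.79, while 17 of 18 chaperone genes lie wholly below 0.5.

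Of 10 genes of fat secretion listed 8 entered, none of them past 2-fold, with a median log2 ratio of -0.08. PLIN2, the coat of lipid droplets, was at 741 and 1250 CPM (1.69, 1.63 to 1.74), MFGE8, a globule membrane protein, at 2490 and 2120 CPM (0.852, 0.832 to 0.872) and FABP3 at 16397 and 13370 CPM. Of 13 fatty acid and triglyceride genes that entered, 1 was past 2-fold higher and 1 lower, beside 1.86% and 14.4% of all genes, with a median of -0.25. With TMM 2 were higher and 0 lower, and without members that held a leukocyte UMI 0 and 5 of 12. Over all genes these settings gave 140 higher and 92 lower of 3053, and 186 and 170 of 3934. THRSP, a lipogenic regulator, was at 26.3 and 66.5 CPM (2.53, 2.17 to 2.93), a direction that turned when members with any leukocyte UMI were left out (log2 ratio -2.27). SREBF1, the sterol and fatty acid transcription factor, was at 113 and 44.5 CPM (0.395, 0.335 to 0.462). FASN, the fatty acid synthase, was at 456 and 329 CPM and SCD at 1019 and 1176 CPM, neither past 2-fold.

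Both STAT5 genes were lower at L20. STAT5A was at 87.2 and 23.6 CPM (0.271, 0.216 to 0.336) and STAT5B at 165 and 45.4 CPM (0.275, 0.234 to 0.321). They were 2 of the 4 genes of the prolactin list that entered, beside 14.4% lower over all genes. The target CISH was at 37.4 and 25.5 CPM, not past 2-fold. With TMM neither STAT5 gene was past 2-fold, and in thinned cells 0 of the 6 genes of the list that entered were. Of 9 luminal transcription factors outside the rule that entered, 0 were past 2-fold higher and 2 lower, beside 1.86% and 14.4% of all genes. The list had a median of -0.74, near that of all genes. The lower ones were XBP1 and GATA3, a factor of luminal identity at 87.6 and 29.3 CPM (0.335, 0.273 to 0.406). With TMM 1 factor was higher and 1 lower, beside 140 and 92 of all 3053 genes. EHF was at 382 and 228 CPM, and the rule marker ELF5 at 587 and 471 CPM. Among progenitor genes, KIT, the stem cell factor receptor, was past 2-fold lower, at 54.2 and 9.23 CPM (0.171, 0.118 to 0.239), and SOX10 and CD14 were not past 2-fold. None of the 9 hormone-sensing genes entered.

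KRT7, the keratin outside the rule that entered, was not past 2-fold, at 51.7 and 56.2 CPM (1.09, 0.934 to 1.26). The rule markers KRT8 and KRT18 had ratios of 1.08 and 1.502, given as a description. Of 12 junction and polarity genes outside the rule that entered, 0 were past 2-fold higher and 2 lower, near the 14.4% of all genes, with a median of -0.88 beside -0.65. With TMM and in thinned cells 0 were lower. The claudin CLDN7 was at 292 and 106 CPM (0.363, 0.327 to 0.402). CDH1 had a ratio of 0.432 (0.365 to 0.509), so its interval reached past 0.5.

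Of 8 defence proteins 2 were past 2-fold higher and 3 lower, beside 1.86% and 14.4% of all genes. With TMM 3 were higher and 0 lower, beside 140 and 92 of all 3053 genes. Without members that held a leukocyte UMI it was 1 and 0, beside 186 and 170 of 3934. CLU (clusterin), an extracellular chaperone, was at 68.0 and 354 CPM (5.21, 4.84 to 5.60), and LPO, the milk peroxidase, at 28.1 and 76.0 CPM (2.71, 2.35 to 3.11). In KRT14-bearing cells CLU was at 68.1 and 743 CPM. LPO turned direction without members that held a leukocyte UMI (log2 ratio -1.07). PGLYRP1 was at 15767 and 7193 CPM (0.456, 0.451 to 0.462), S100A12 at 414 and 135 CPM and WFDC2, a protease inhibitor, at 56.7 and 16.0 CPM. PIGR was at 1675 and 2894 CPM (1.73, 1.69 to 1.76) and LTF at 2048 and 1620 CPM, neither past 2-fold.

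Among 16 transporters, 2 were past 2-fold higher and 5 lower, beside 1.86% and 14.4% of all genes. With TMM it was 2 and 2 of 15, beside 140 and 92 of all 3053 genes. The water channel AQP5 was at 5.96 and 38.8 CPM (6.52, 5.14 to 8.26) and the calcium pump ATP2B2 at 20.6 and 57.9 CPM (2.81, 2.38 to 3.30). The zinc exporter SLC30A2, which loads zinc into milk vesicles, was at 53.7 and 5.98 CPM (0.111, 0.0695 to 0.169). The amino acid carriers SLC7A5 at 38.6 and 7.33 CPM (0.190, 0.125 to 0.278), SLC1A5 at 128 and 26.1 CPM (0.204, 0.165 to 0.250) and SLC3A2, the partner chain of SLC7A5, at 134 and 53.8 CPM (0.401, 0.346 to 0.463) were lower as well.

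Stress and tissue-loss genes changed their calls with the setting. Of 18 immediate early and heat shock genes 1 was past 2-fold higher, IER3 at 37.0 and 92.1 CPM, and 4 lower, HSP90AA1 at 341 and 102 CPM, HSPH1 at 111 and 19.0 CPM, HSPB1 at 158 and 47.5 CPM and MYC at 48.7 and 18.2 CPM, beside 1.86% higher and 14.4% lower over all genes. With TMM 1 was higher and 1 lower, and without members that held a leukocyte UMI 5 were higher and 0 lower. Over all genes these settings gave 140 higher and 92 lower of 3053, and 186 and 170 of 3934. FOS at 1479 and 1060 CPM and JUN at 1210 and 1046 CPM were not past 2-fold. Of 12 involution and lysosome genes 0 were higher and 4 lower, with TMM 0 and 2, and without members that held a leukocyte UMI 3 and 0 of 15. NUPR1, a stress-induced nuclear protein, was at 3202 and 1319 CPM (0.412, 0.4002 to 0.424) and CEBPD, an acute-phase transcription factor, at 459 and 65.5 CPM (0.143, 0.125 to 0.162). The other 2 lower genes were the cathepsins CTSB and CTSD, whose direction turned without members that held a leukocyte UMI (log2 ratios 0.44 and 0.32). It did not turn without members above 10 leukocyte UMIs per 10000.

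Interferon-stimulated genes had the highest median of the lists with at least 5 genes entered, 0.92, with 5 of 24 entered. IFI6 was at 64.7 and 589 CPM (9.11, 8.54 to 9.73) and ISG15 at 24.8 and 102 CPM (4.11, 3.60 to 4.68). IFI6 was found in 5.94% of L0 (4.75 to 7.33) and 17.5% of L20 members (13.2 to 22.5) after thinning, and in 49.8% and 44.9% before it. Myeloid cells held IFI6 at 275 and 1329 CPM and ISG15 at 723 and 1279 CPM, above the members in both libraries, and the part of leukocyte RNA in the members' values was not tested. Of 12 NF-kappa-B, chemokine and cytokine genes 1 was past 2-fold higher, the adhesion molecule ICAM1 at 10.8 and 37.8 CPM, beside 1.86% of all genes. With TMM 4 of 12 were higher, beside 140 of all 3053 genes. Without members that held a leukocyte UMI it was 5 of 14, beside 186 of 3934. Of 6 antigen presentation genes 1 was lower, near the 14.4% of all genes. It was SLA-DQB1, an MHC class II chain at 72.9 and 11.7 CPM, which turned direction without members that held a leukocyte UMI (log2 ratio 1.24). Of 3 ERBB genes none was past 2-fold, with ERBB3 at 1204 and 1169 CPM.

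Among lists of other cells, the granulocyte and macrophage list entered with 11 of 20 genes. Of these GPNMB alone was past 2-fold lower, beside 14.4% of all genes. The list summed to 814 and 387 CPM in members against 21572 and 15309 CPM in myeloid cells. The T and NK list entered with GZMH alone, a granzyme at 2.38 and 88.0 CPM, and the B and plasma list with JCHAIN alone. No basal, endothelial or fibroblast gene entered. Of 14 protease and inhibitor genes 2 entered. The metalloprotease inhibitor TIMP1 was past 2-fold higher, beside 1.86% of all genes, at 28.7 and 242 CPM. Of its L20 UMIs 60.8% were in 1 cell. None of 55 ribosomal protein genes was past 2-fold, with ratios from 0.499 to 1.20 and a median of -0.27. Of 13 mitochondrial genes 10 were past 2-fold lower, beside 14.4% of all genes. This was in step with median mitochondrial shares of 2.60% and 0.606% per cell, which the rule limited at 25%.

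The named genes farthest from 1 were often carried by few cells. Among the higher ones, ADIRF was at 37.8 and 1305 CPM (34.6, 32.2 to 37.1) and MGP at 52.1 and 1558 CPM (29.9, 28.2 to 31.8). In gland nuclei MGP lay the other way, at 2353 and 1288 CPM at L0 and 75.004 and 96.0 CPM at L20. After thinning, ADIRF was found in 4.26% and 41.4% of members and MGP in 4.18% and 35.0%, so both reached many L20 cells. KRT14-bearing L20 cells held both at higher levels than the members, at 3506 and 2203 CPM. PTHLH, the parathyroid hormone-like factor of lactation, was at 1.61 and 69.0 CPM (42.8, 30.6 to 61.4), with a UMI in 1.97% and 21.6% of members. The complement protein C3 was at 25.2 and 178 CPM (7.05, 6.31 to 7.88), found in 3.08% and 25.7% after thinning. In KRT14-bearing L20 cells C3 was at 301 CPM. FDCSP, a rule marker, was at 32.1 and 469 CPM, but 69.7% of its L20 UMIs were in 1 cell. CCL4, a chemokine, was likewise held to 65.1% by 1 L20 cell.

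Among the lower ones, JCHAIN was at 648 and 10.3 CPM, GPNMB at 184 and 13.0 CPM and CPSF6, a factor of RNA 3′ end processing, at 180 and 19.0 CPM, with 96.4%, 94.4% and 94.7% of the L0 UMIs in the top 69 cells. SCRG1 was different in this respect, at 142 and 2.99 CPM (0.0211, 0.0105 to 0.0378) with a UMI in 64.0% of L0 and 3.48% of L20 members. TAC4, a tachykinin, was at 99.7 and 3.26 CPM (0.0327, 0.0169 to 0.0572), and RAMP3, a partner of calcitonin-family receptors, at 323 and 44.3 CPM (0.137, 0.117 to 0.160). RAMP3 was found in 28.5% of L0 (26.2 to 31.0) and 2.86% of L20 members (1.24 to 5.55) after thinning. HPS5 was among the most abundant names, at 39741 and 89118 CPM (2.24, 2.23 to 2.25). Its neighbours on chromosome 2 are serum amyloid A genes, so the assignment of these UMIs to HPS5 is uncertain.

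Genes with the largest level in members over all other kept barcodes included genes of lipid handling, transport and milk. The acyl-CoA ligase ACSL6 was 2.20 times higher at L0 and 8.15 times at L20, the amino acid transporter SLC6A14 2.10 and 8.28 times, the Golgi calcium pump ATP2C2 2.03 and 8.34 times and LALBA 1.97 and 8.95 times. In KRT14-bearing cells the levels of these 4 genes were close, 0.681 to 0.839 times those of the members at L0 and 0.747 to 0.818 times at L20. Among those other barcodes, milk proteins took 20.5% of the UMIs at L0 and 5.84% at L20.

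**Figure D5:**
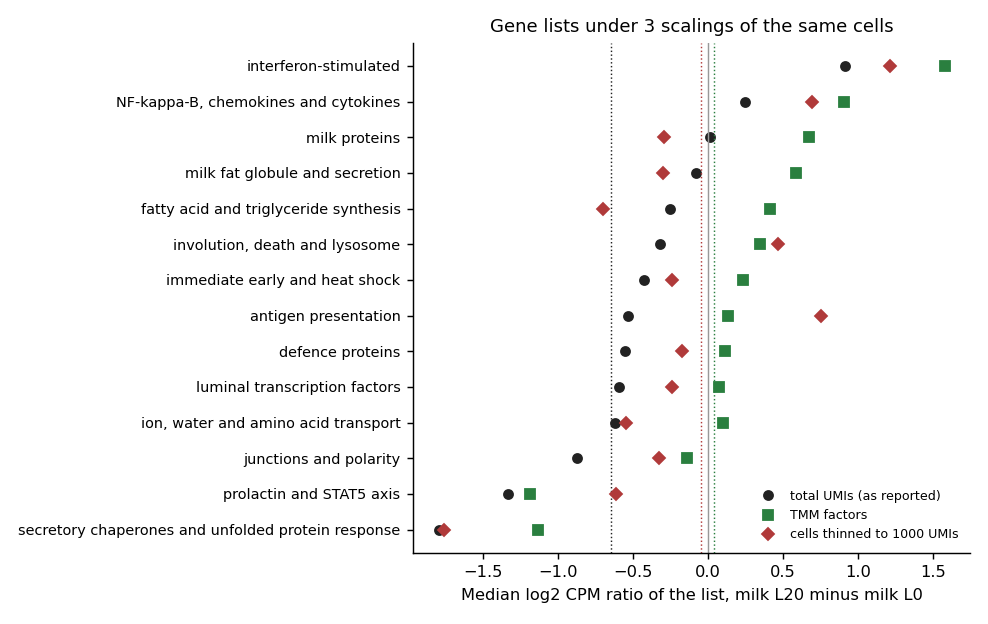
Median log2 ratio of CPM, milk L20 minus milk L0, for 14 gene lists with total UMIs, TMM factors and cells thinned to 1000 UMIs, 1 library per stage, where dotted lines mark the median of all genes for each scaling. The chaperone list stays lowest or next to lowest, from -1.80 to -1.13, and the interferon list highest, from 0.92 to 1.58, while several lists in between change sign.

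The scaling decided the sign of many lists against 0, but it also moved the median of all genes, from -0.65 to 0.04 with TMM and -0.05 thinned. The milk protein list had a median of 0.01 with total UMIs. With TMM it had a median of 0.68, with 3 of 7 genes past 2-fold higher, and thinned it had a median of -0.30. The fat globule list went from -0.08 to 0.58 and -0.30, and the list of fatty acid genes from -0.25 to 0.41 and -0.70. These lists thus lay above the median of all genes with total UMIs and with TMM, and below it thinned. The chaperone and interferon lists kept their sign in each of these scalings.

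The rule took few gland nuclei, 713 of 11442 and 360 of 9392 kept at L0 and 690 of 12193 and 180 of 15148 at L20. The study assigned most nuclei of both stages to epithelial cells, so the chosen nuclei are a small part of these. They also differed between glands, with the rule marker FDCSP at 840 and 3.52 CPM in the L20 glands. Whether they stand for the luminal cells of a gland was not tested. These gland nuclei gave other values for the milk protein genes. CSN2 was at 2175 and 2582 CPM in the L0 glands and at 296 and 29.96 CPM in the L20 glands chosen by the same rule, and CSN1S1 at 7325 and 5184 against 438 and 245 CPM. PAEP was at 5255 and 6539 against 759 and 134 CPM. In these 3 genes both L20 glands lay below both L0 glands, while the milk ratio was 1.004 to 1.79. STAT5B was lower in both, at 1872 and 1635 CPM in the L0 glands and 1138 and 685 CPM in the L20 glands, as were KIT, NUPR1, SLC30A2 and SLC1A5. IFI6 was higher in both, at 11.3 and 7.99 against 23.4 and 33.5 CPM. Of the 67 genes on the lists past 2-fold in milk, the glands did not overlap for 35, of which 13 had the same direction and 22 the other. Over all 507 genes past 2-fold in milk the glands did not overlap for 256 (50.5%), with 116 (22.9%) in the same direction and 140 (27.6%) in the other, and over all 3118 genes entered they did not overlap for 1497 (48.0%). Nuclei and whole cells were prepared with different kits and only 2 sows per stage were measured, so no test was made between them.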

How the data were processed

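The 2 milk single-cell libraries, 1 labelled L0 and 1 labelled L20, and 4 gland nucleus libraries of the same stages were used. From GEXSCOPE libraries, the authors obtained raw UMI counts with CeleScope and Sscrofa11.1, which they deposited per gene and barcode without normalization. Gene symbols were matched for 15228 of 25996 milk identifiers. The members and gene lists were chosen with earlier results of these data known.

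Member UMIs were summed per library and scaled to CPM, with a minimum mean of 20 CPM. Ratios have exact conditional binomial 95% intervals, and shares exact Clopper-Pearson intervals. The ratio intervals were checked only on simulated counts drawn independently, as the interval assumes. That check does not cover genes whose UMIs are gathered in few cells. Cells were thinned to 1000 UMIs for shares of cells. Named genes were list members, the 15 genes with a symbol in each direction whose interval lay farthest from 1, the 15 highest over other barcodes at 50 CPM or above, and the 10 most abundant. Alternatives used edgeR 4.0.16 (TMM) and DESeq2 1.42.0 scaling factors, without their tests, and scanpy 1.11.5 (Scrublet). Python 3.11.15 and scipy 1.17.1 were used. Protein sequences were not used here. The values of some list genes that were counted are not reported here.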

Additional observations from a re-analysis of the deposited data

Results flagged for a closer look

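For 22 of the 67 list genes past 2-fold in milk, the gland nuclei of both L20 sows lay on the other side of both L0 sows, and this difference between milk cells and gland nuclei was not tested. Over all 507 genes past 2-fold in milk 140 (27.6%) lay so, list genes or not. The values of 21 of the list genes are given here. No lower limit was set on the gland levels, and GZMH, S100A12 and WFDC2 each had a gland at 0 CPM. Among genes of protein folding, the milk ratio of L20 over L0 was 0.213 for HSPA5, 0.246 for HSP90B1, 0.225 for PDIA3, 0.205 for PDIA4, 0.399 for CANX and 0.305 for DNAJC3, while both L20 glands lay above both L0 glands. HSPA5 was at 15.9 and 14.4 CPM in the L0 glands and 68.9 and 24.7 CPM in the L20 glands.

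Lysosomal and leukocyte-type genes had milk ratios of 0.289 for CTSB, 0.245 for CTSD, 0.0708 for GPNMB, 0.326 for S100A12 and 0.160 for SLA-DQB1, again with both L20 glands above. Without members that held a leukocyte UMI the milk values of CTSB, CTSD and SLA-DQB1 turned to the direction of the glands (log2 ratios 0.44, 0.32 and 1.24). Without members above 10 leukocyte UMIs per 10000 they did not turn. CTSD was at 16.6 and 10.4 CPM in the L0 glands and 181 and 57.3 CPM in the L20 glands. The mitochondrial genes had milk ratios of 0.312 for ND1, 0.314 for ND2 and 0.370 for ND6 and higher L20 glands. The other genes with higher L20 glands had milk ratios of 0.363 for CLDN7, 0.374 for MYC, 0.190 for SLC7A5, 0.436 for SPP1 and 0.282 for WFDC2.

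The 2 remaining genes were past 2-fold higher in milk and lower in both L20 glands, with milk ratios of 2.81 for ATP2B2 and 37.0 for GZMH. GZMH was at 3.53 and 2.40 CPM in the L0 glands and 1.23 and 0 CPM in the L20 glands. With the 2 milk labels exchanged all 22 would lie on the same side as the glands, and the 13 genes that now share their side would not.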

How the results depend on the processing

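No paired analysis was possible because each stage had 1 milk library. The share of barcodes that were luminal, 7.80% at L0 and 1.98% at L20, came to 15.9% and 4.42% of the barcodes left by limits of 500 genes and 10% mitochondrial UMIs, 9.36% and 3.29% with 2 markers, 6.88% and 1.16% with 4 markers, 1.35% and 0.813% without members holding a leukocyte UMI, and 14.7% and 4.75% with KRT14-bearing cells taken in. The median milk protein share came to 35.5% and 25.3% with 2 markers, 38.8% at L20 with 4 markers, 35.3% and 20.7% without leukocyte UMIs, 38.0% and 45.7% in cells of at least 5000 UMIs, 36.1% and 23.0% with KRT14-bearing cells, and 35.8% at L0 with the myeloid share subtracted. The order of the 2 medians turned with at least 5000 UMIs and with 4 markers.

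Genes past 2-fold, 58 higher and 449 lower at L20, came to 186 and 170 without leukocyte UMIs, 140 and 92 with TMM, 148 and 89 with DESeq2 factors, 96 and 124 thinned, 187 and 1043 without a filter on low counts, and 23 and 135 at 100 CPM or above. Without milk protein and mitochondrial genes in the total, 91 were higher. List genes past 2-fold outside the ribosomal and mitochondrial lists, 12 higher and 45 lower, came to 27 and 22 without leukocyte UMIs, 25 and 18 with TMM, 27 and 17 with DESeq2 factors, and 4 and 26 at 100 CPM or above. Without a filter 20 were higher, and thinned 21 were lower. The other settings kept these counts within 1.5 times. Of the named genes, 39 kept their direction but were no longer past 2-fold, or no longer entered, at 100 CPM or above. The number was 35 thinned, 33 without leukocyte UMIs, 30 with DESeq2 factors and 29 with TMM, and at most 10 in each other setting. Genes whose direction turned, 7 of them without leukocyte UMIs, are not in these counts and are given below.

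Directions turned, as log2 ratios, for CTSD (0.40) and SPP1 (1.03) with 2 markers, for CPSF6 (0.78), CTSB (0.44), CTSD (0.32), DTX3 (-0.0325), LPO (-1.07), SLA-DQB1 (1.24) and THRSP (-2.27) without leukocyte UMIs, and for CPSF6 without members above 10 leukocyte UMIs per 10000 (0.29) and in members at 30% milk protein or above (0.071). The cause was not tested. The settings on leukocyte UMIs above 10 per 10000, on 30% milk protein, on 5000 UMIs and on KRT14 were chosen after seeing the data. Of the chaperone genes, 8 to 17 were past 2-fold lower in every setting tried, and none higher. Depth limits genes under 20 CPM, chiefly at L20.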

Other observations

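Several identifiers without a symbol in the tables used were farther from 1 than any named gene. ENSSSCG00000013369 had 531 UMIs at L0 and 34247 at L20, or 21.4 and 9302 CPM (ratio 435, interval 399 to 475). It was found in 1.69% of L0 and 65.7% of L20 luminal members after thinning to 1000 UMIs, and its top L20 cell held 3.90% of its UMIs. ENSSSCG00000043761 was at 15.7 and 1140 CPM (72.8, 65.6 to 81.0) and was found in 1.76% and 59.3% of members after thinning.

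In the other direction, ENSSSCG00000007398 was at 1529 and 19.6 CPM (0.0128, 0.0100 to 0.0161) and was found in 58.8% and 2.14% of members after thinning. ENSSSCG00000037775 was at 2789 and 30.4 CPM (0.0109, 0.00898 to 0.0131), but 95.9% of its L0 UMIs lay in the top 69 cells and 25.7% in 1 cell.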
